A study of Mus musculus with 6 samples.

Results

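The *Grhl*, *Ovol*, *Elf*/*Ehf* and *Esrp* genes were followed in sorted cancer cells of mouse cutaneous squamous cell carcinoma (cSCC). The 10 members, *Grhl1*, *Grhl2*, *Grhl3*, *Ovol1*, *Ovol2*, *Elf3*, *Elf5*, *Ehf*, *Esrp1* and *Esrp2*, were taken by symbol, with every probe set that the platform annotation assigns to 1 of them alone. All 10 were represented, by 16 probe sets, among 17097 genes measured. Full epithelial cancer cells came from 3 well-differentiated tumors (WD-SCCs). EpCAM+ plastic cancer cells came from 3 moderately or poorly differentiated tumors (MD/PD-SCCs) and pool cells with high and low surface EpCAM. Both groups were sorted as α6-integrin+CD45-EpCAM+ cells after red cells were lysed and CD31+ endothelial cells were depleted, and each array holds the cells of 1 independent tumor. The cancer cells of the study go back to K14-HPV16Tg/+ mice, in which the keratin 14 promoter drives human papillomavirus 16 sequences in basal keratinocytes, and whose tumors arose spontaneously or after DMBA/TPA. Those advanced lesions that the study grew by serial engraftment were passed through athymic nude Foxn1nu hosts. Its methods give the hosts of engrafted tumors in general as young adult male mice, with the tumor placed in the back skin. The sources used here do not tie the arrayed tumors to a host strain or lineage. The comparison asks how the expression program of epithelial cancer cells changes as tumors lose differentiation while EpCAM is still on the cell surface.

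Grainyhead-like (Grhl) factors bind DNA and switch on junction, barrier and wound repair genes of surface epithelia. Ovol zinc finger factors act mostly as repressors and keep mesenchymal transcription factors off. Elf3, Elf5 and Ehf form an epithelium-restricted branch of the ETS family, whose members bind a GGAA core and take part in the differentiation of skin, gland and airway epithelia. Esrp1 and Esrp2 are RNA-binding proteins that impose epithelial splice forms on many mRNAs.

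The sorted cells carried epithelial transcripts in both groups. *Krt5*, a basal keratin, lay between 12.27 and 12.56 on the log2 scale over the 6 arrays, and all 8 epithelial markers were above the background level. This level, 5.73, is the 95th percentile of the 23 nonspecific probe sets of the array, averaged over the arrays. Of the epithelial markers, *Krt18* rose by 1.69 on the log2 scale (adjusted p = 0.0349, limma), and the other 7 were not called. At an unadjusted p under 0.05 in limma, 1 epithelial marker was lower (*Krt8*, log2 fold change −1.33) and 2 were higher. *Ptprc*, which encodes CD45, lay between 2.90 and 3.00. None of the 27 markers of leukocytes, fibroblasts, endothelial cells and melanocytes passed limma at an adjusted p under 0.05, and at an unadjusted p under 0.05 there were 3, the leukocyte markers *Cd3e*, *Lyz2* and *Cd68*, all lower in plastic cells. *Cd68*, at 7.67 to 9.41, was above background on every array, and its part in the results was not tested. The mean log2 value of the 8 fibroblast markers ran from 5.01 to 5.27 in full epithelial arrays and was 4.86, 5.84 and 4.64 in plastic arrays 1 to 3. Of these markers, *Col1a1* read between 6.48 and 8.05, above background on every array, and *Col3a1* between 4.70 and 7.85. The part of fibroblast transcripts in the results was not tested. Values from sorted populations cannot tell fewer expressing cells from less RNA in each cell.

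*Elf5*, *Ehf* and *Elf3*, the 3 ETS members, fell in EpCAM+ plastic cells, and *Elf5* fell most. The other 7 members did not pass the test, and no member rose. *Elf5* was at least 4.35-fold lower, since 2 of its 3 plastic arrays were below background, *Ehf* 1.59-fold and *Elf3* 1.34-fold. These 3 calls of 10 stand beside 1.91% of all genes called lower, and the 0 calls higher beside 5.3% of all genes called higher (limma, Benjamini-Hochberg over all 45141 probe sets, adjusted p under 0.05). Of all 17097 genes, 7735 had a mean above the background level, as did 9 of the 10 members, so these shares include many dim genes. At an unadjusted p under 0.05, 5 members were lower and 1 was higher. Without plastic array 2 the count lower was 2, and without any other single array it was 0, with 5 or 6 members lower at an unadjusted p under 0.05 in each of these limma fits. Over all genes, 7.14% were called in either direction without plastic array 2, and 1.45% to 4.43% without another array. With all arrays kept it was 7.21%. Only *Elf5* was also past a log2 fold change of 1, beside 0.831% of all genes. The groups did not overlap for 5 members that were lower (13.7% of all genes) and 1 that was higher (15.4%). The median log2 fold change over the members was −0.43, over all genes −0.02, and over the 7735 genes above background 0.09. On each array taken alone, the median deviation of the 10 members from their full epithelial means was −0.22, −0.42 and −0.59 in plastic arrays 1 to 3, against 0.16, 0.05 and −0.21 in full epithelial arrays 1 to 3.

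**Figure D1:**
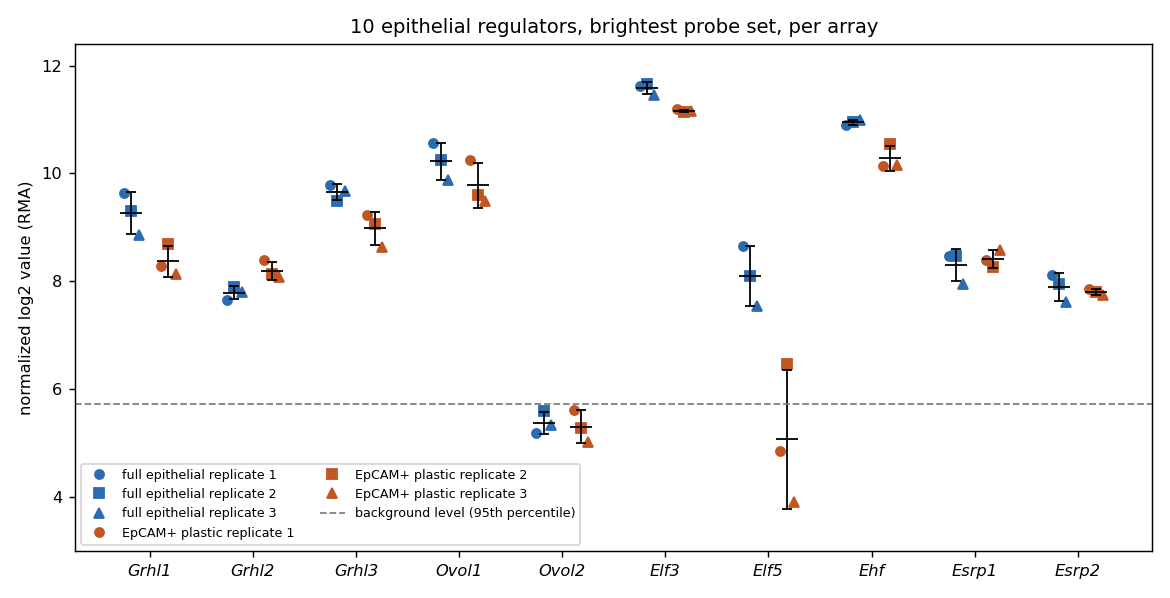
Normalized log2 values (vertical axis) of the brightest probe set of each of the 10 genes on the 3 full epithelial (blue) and 3 EpCAM+ plastic (orange) arrays, with the group mean and SD as bars and the background level of 5.73 as a dashed line. Levels can be compared within a gene and not between genes. *Elf5* spans 3.91 to 6.46 in plastic arrays and 7.53 to 8.65 in full epithelial arrays.

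*Elf5* encodes an ETS factor best known in the mammary gland, where it drives the alveolar secretory lineage, and in the trophoblast. Its promoters are shown because *Elf5* carried the largest difference among the members, and that of *Elf3* because it fell far less. Each is the 250 bases before a RefSeq transcription start (GRCm38.p6), read 5′ to 3′ on the strand of the gene. Capitals mark the E-box CAGGTG, written CACCTG where it lies on the opposite strand, which Zeb, Snail and other E-box factors can bind.
*Elf5*, first start, chr2:103411848-103412097, plus strand: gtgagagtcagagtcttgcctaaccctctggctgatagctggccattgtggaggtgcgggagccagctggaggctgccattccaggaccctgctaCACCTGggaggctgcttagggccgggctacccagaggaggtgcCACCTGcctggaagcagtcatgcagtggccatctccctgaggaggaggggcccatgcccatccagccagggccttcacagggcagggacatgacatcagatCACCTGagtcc
*Elf5*, second start, chr2:103423818-103424067, plus strand: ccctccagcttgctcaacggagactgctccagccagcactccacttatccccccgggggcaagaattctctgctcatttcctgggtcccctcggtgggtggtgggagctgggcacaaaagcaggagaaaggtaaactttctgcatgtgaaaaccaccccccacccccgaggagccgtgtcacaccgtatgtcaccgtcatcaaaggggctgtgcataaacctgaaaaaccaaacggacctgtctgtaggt
*Elf3*, chr1:135258473-135258722, minus strand: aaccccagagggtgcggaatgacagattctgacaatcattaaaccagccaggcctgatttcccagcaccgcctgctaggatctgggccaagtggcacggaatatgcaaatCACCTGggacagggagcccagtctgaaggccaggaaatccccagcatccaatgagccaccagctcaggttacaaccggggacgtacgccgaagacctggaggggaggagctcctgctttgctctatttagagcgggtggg

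The upstream *Elf5* window held 3 such E-boxes, which begin 155, 112 and 11 bases before the start. Of 32851 mouse promoter windows of the same length, 17.2% held at least 1 and 0.247% held 3 or more. The second *Elf5* window held 0, that of *Elf3* held 1, that of *Grhl3* held 1, and those of *Grhl1* and *Ovol2* held 0. The table of promoters matched 5 of the 10 genes, with 7 windows. The grainyhead site AACCGGTT, which is its own reverse complement, was in 0 of the 7 windows and in 0.116% of all windows. The ETS core GGAA or its reverse complement TTCC was in 7 of the 7 and in 93.4% of all windows. Such matches describe the sequence, and the arrays do not say which start is in use.

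The brightest *Elf5* probe set read 8.65, 8.10 and 7.53 in full epithelial arrays 1 to 3. In plastic arrays 1 to 3 it read 4.84, 6.46 and 3.91. Every plastic array lay below every full epithelial array, and plastic arrays 1 and 3 were below the background level. With those 2 arrays set to 5.73, *Elf5* was at least 2.12 lower on the log2 scale (at least 4.35-fold). The limma fit to the values as deposited had a log2 difference of −3.02 ± 0.63 (SE, n = 3 per group, adjusted p = 0.0421), whose size rests on readings under the background level. The second *Elf5* probe set read 8.15, 6.50 and 6.68 in full epithelial arrays and 4.77, 5.33 and 4.06 in plastic arrays. All 3 plastic arrays were below background there, so it gives a bound, with *Elf5* at least 2.60-fold lower in plastic cells (adjusted p = 0.0419 in the limma fit). Both bounds set the full epithelial mean against the higher of 5.73 and the measured value on each plastic array. Plastic array 2, where *Elf5* was highest among the plastic arrays, had the highest fibroblast marker mean (5.84) and the lowest epithelial marker mean (9.73). Whether these values are linked was not tested. Without plastic array 2, the same kind of bound put *Elf5* at least 5.15-fold lower. The limma fit to the deposited values of the remaining arrays had an adjusted p of 0.0127. Leaving out any of the other 5 arrays ended the call, with adjusted p from 0.0791 (without full epithelial array 3) to 0.137 (without plastic array 1).

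*Ehf* encodes the ETS factor of many glandular and stratified epithelia that is also known as ESE3. It read 10.90, 10.96 and 10.995 in full epithelial arrays 1 to 3 and 10.14, 10.55 and 10.16 in plastic arrays 1 to 3. The full epithelial arrays were nearly alike, and the plastic arrays were all below them. *Ehf* fell by 0.67 ± 0.13 on the log2 scale (SE, n = 3 per group), with a 95% interval of −0.98 to −0.36 and an adjusted p of 0.0346 (limma). Another 2 *Ehf* probe sets gave log2 fold changes of −0.72 and −0.76 with no overlap between the groups, at adjusted p of 0.0713 and 0.0530 in the same limma fit. The fourth *Ehf* probe set was at background on every array, between 3.28 and 3.77, so it gives no fold. Without plastic array 2 the log2 fold change was −0.80 (adjusted p = 0.0157, limma), and leaving out any other array ended the call, with adjusted p from 0.0835 (without full epithelial array 2) to 0.118 (without plastic array 1).

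*Elf3*, the ETS factor also called ESE1, has roles in terminal differentiation and in epithelial inflammation. It read 11.63, 11.66 and 11.45 in full epithelial arrays 1 to 3 and 11.19, 11.14 and 11.15 in plastic arrays 1 to 3. The plastic arrays were nearly alike and below all full epithelial arrays. *Elf3* fell by 0.42 ± 0.09 on the log2 scale (SE, n = 3 per group), with a 95% interval of −0.64 to −0.20 and an adjusted p of 0.0488 (limma). The call was close to the threshold and was lost in each of the 6 fits that leave out 1 array (adjusted p from 0.0582 to 0.149), and after a second quantile normalization (adjusted p = 0.0788). It was also lost with array medians centred (0.0557), with an intensity trend and robust estimation (0.0673), with dim probe sets left out (0.0685) and with a replicate block (0.141). It held in 2 of the 13 alternatives, array weights (0.0481) and means over probe sets (0.0362). The log2 fold change itself stayed between −0.48 and −0.37 under all 13 alternatives.

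Across all probe sets of the members, 4 of 16 were called lower (1.87% of all probe sets) and 0 were called higher (4.11%), with 1 higher at an unadjusted p under 0.05 in limma. The 4 are those of *Elf3* and of *Elf5* and the brightest of *Ehf*. The 2 of *Elf5* were past a log2 fold change of 1 as well, beside 0.844% of all probe sets. The groups did not overlap for 8 probe sets that were lower (13.2%) and for 1 that was higher (13.5%). Probe sets of 1 gene had the same sign for *Elf5*, *Ehf*, *Grhl2* and *Ovol1*, the 4 genes with more than 1. The sign carries little for the *Ehf* probe set at background. The groups also overlapped for the second probe set of *Grhl2* and for those of *Ovol1*.

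**Figure D2:**
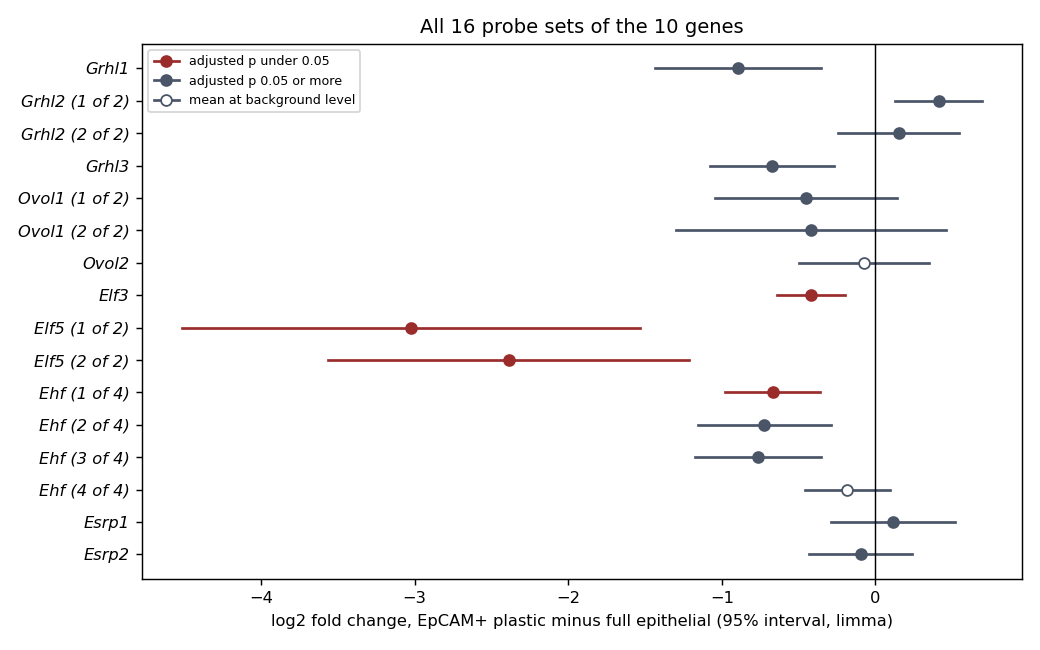
Log2 fold change (horizontal axis, EpCAM+ plastic minus full epithelial) with its 95% interval from limma for all 16 probe sets of the 10 genes. Red marks the 4 probe sets past an adjusted p of 0.05, and open circles mark the 2 probe sets with a mean at background level. The *Elf5* values lie farthest from 0, and they are fitted to readings that include plastic arrays below background, so the text gives *Elf5* as a bound.

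*Grhl1* and *Grhl3* lay lower in plastic cells and *Grhl2* higher, each without overlap between the groups, but none of the 3 passed the test. *Grhl1*, which takes part in desmosomal cadherin expression and hair anchorage, read 9.63, 9.31 and 8.85 in full epithelial arrays 1 to 3 and 8.29, 8.69 and 8.13 in plastic arrays 1 to 3. Its log2 fold change was −0.90 ± 0.23 (SE, n = 3 per group), with a 95% interval of −1.44 to −0.35 before adjustment and an adjusted p of 0.0727 (limma). *Grhl3*, needed for barrier formation and for wound closure in the mouse embryo, read 9.79, 9.49 and 9.67 in full epithelial arrays and 9.23, 9.07 and 8.64 in plastic arrays. Its log2 fold change was −0.67 ± 0.17, with a 95% interval of −1.08 to −0.27 and an adjusted p of 0.0720 (limma). Both were past the threshold when dim probe sets were left out before adjustment, with *Grhl1* at 0.0422 and *Grhl3* at 0.0497 (limma). With these genes added and *Elf3* lost, 4 members were then called lower. In that fit 381 of 7735 genes were called lower. In either direction it called 17.2% of genes, against 7.21% in the main fit.

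*Grhl2* is the family member tied most closely to *Cdh1* and apical junction expression in simple epithelia. It read 7.66, 7.90 and 7.79 in full epithelial arrays 1 to 3 and 8.39, 8.13 and 8.07 in plastic arrays 1 to 3. All plastic arrays were above all full epithelial arrays, by a small margin. The log2 fold change was 0.41 ± 0.12 (SE, n = 3 per group), with a 95% interval of 0.13 to 0.70 and an adjusted p of 0.102 (limma). The second *Grhl2* probe set overlapped between the groups, at 6.32, 6.95 and 6.53 against 6.68, 6.82 and 6.77, with a log2 fold change of 0.15 and an adjusted p of 0.668.

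The fold changes of the *Grhl* genes had different signs, and the difference between 2 members of a family can be read within each array. The log2 value of *Grhl1* minus that of *Grhl2* was 1.97, 1.41 and 1.06 in full epithelial arrays 1 to 3 and −0.10, 0.55 and 0.06 in plastic arrays 1 to 3. The mean of this difference shifted by −1.31 between the groups. For *Grhl3* minus *Grhl2* the shift was −1.09, also without overlap, and for *Grhl1* minus *Grhl3* it was −0.22 with overlap. Within the ETS members, with the 2 *Elf5* readings under background set to 5.73, the mean of *Elf5* minus *Ehf* was at least 1.45 lower in plastic arrays and that of *Elf5* minus *Elf3* at least 1.70 lower, both without overlap, while *Ehf* minus *Elf3* shifted by −0.25 with overlap. With 3 arrays against 3, an exact two-sided permutation test cannot go below p = 0.10, and the 4 pairs without overlap reached that value (0.20 after Benjamini-Hochberg adjustment over the 8 pairs). The pairs were chosen after values had been seen, and the zero of such a difference has no meaning because the 2 probe sets differ.

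**Figure D3:**
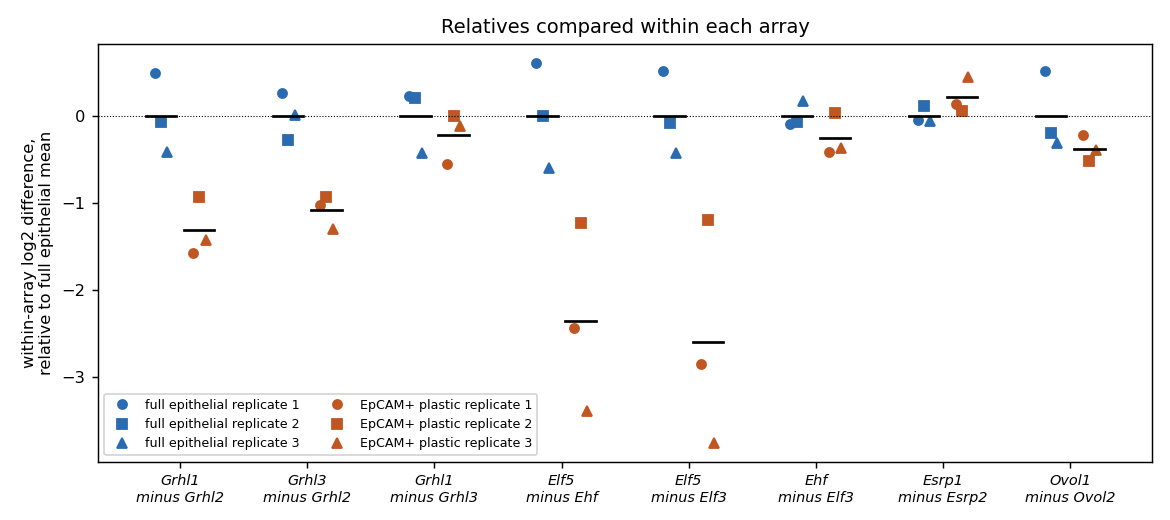
Within-array difference of the log2 values of 2 related genes (vertical axis, after subtracting the full epithelial mean) for 8 pairs, with points for single arrays and lines for group means. The pairs that set *Grhl1* or *Grhl3* against *Grhl2*, and *Elf5* against *Ehf* or *Elf3*, have no overlap between the groups. Points are drawn from the values as deposited, 2 of which for *Elf5* are below background.

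*Ovol1*, which helps keratinocytes leave the cell cycle as they differentiate, read 10.56, 10.25 and 9.87 in full epithelial arrays 1 to 3 and 10.25, 9.60 and 9.48 in plastic arrays 1 to 3. The ranges overlapped, since plastic array 1 was as high as full epithelial array 2. The log2 fold change was −0.45 ± 0.25 (SE, n = 3 per group), with a 95% interval of −1.04 to 0.14 and an adjusted p of 0.368 (limma), and its second probe set gave −0.42. *Ovol2*, the Ovol factor of the embryonic surface ectoderm and mammary epithelium, was below the background level on every array, between 5.02 and 5.62, so no fold is given.

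*Esrp1* and *Esrp2* did not pass the test. Their 95% intervals, from 3 arrays per group and before adjustment, give the differences most compatible with the values. *Esrp1* read 8.47, 8.47 and 7.95 in full epithelial arrays 1 to 3 and 8.40, 8.26 and 8.59 in plastic arrays 1 to 3. Its log2 fold change was 0.12, with a 95% interval of −0.29 to 0.52 and an adjusted p of 0.758 (limma). *Esrp2* read 8.12, 7.96 and 7.61 in full epithelial arrays and 7.86, 7.81 and 7.74 in plastic arrays. Its log2 fold change was −0.10, with a 95% interval of −0.43 to 0.24 and an adjusted p of 0.762 (limma). The groups overlapped for both genes. Both lay above the background level on all 6 arrays, and *Esrp1* minus *Esrp2* shifted by 0.21 within arrays, with overlap.

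Of the 10 genes, *Elf5* and *Ehf* lie side by side on chromosome 2. Only 1 measured gene, *BC016548*, stands between them in the RefSeq gene order, and it was at background. The 50 nearest measured genes around *Elf5* had a median log2 fold change of 0.05, with 2 called lower, of which *Ehf* is 1, and 2 higher. *Cat*, the catalase gene on the other side of *Elf5*, had a log2 fold change of −2.69 that did not pass (adjusted p = 0.0898, limma), and it is named here after its value was seen. *Ovol1* lies on chromosome 19, where 100 of 568 other genes were called higher and 1 lower. The 50 genes around *Ovol1* had a median of 0.28, with 9 called higher, whereas *Ovol1* itself had −0.45. Around *Esrp1* on chromosome 4 the median was 0.11, with 9 called higher and 1 lower. *Ehf* shares its neighborhood with *Elf5*, with a median of 0.05 as well. For the other 6 members the median of the 50 nearest genes lay between −0.05 and 0.02, and among those around *Elf3* on chromosome 1, 9 were called higher and 2 lower.

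The genes whose values followed the called members most closely over the 6 arrays were taken by Pearson correlation among 7735 genes with a mean above the background level. For *Elf5* they were *Bambi* (r = 0.994), *Cbr3* (0.994) and *Vps39* (0.993). For *Ehf* they were *Aldh16a1* (0.996), *Tmem205* (0.994) and *Dock6* (0.985). For *Elf3* they were *Rcn1* (0.998), *Gpt* (0.997) and *Amer1* (0.996). The 6 arrays form 2 groups, so these values mostly describe the difference between the groups.

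Genes connected to the members by function were counted next, in 8 lists that hold 132 measured genes. Their counts can be read beside the 1.91% of all genes called lower and the 5.3% called higher. Among 19 genes known as Grhl targets, 4 fell and 0 rose. At an unadjusted p under 0.05 in limma, 10 were lower and 0 higher, and the list median was −0.27. The 4 were *Rab25*, a small GTPase of apical recycling (log2 fold change −0.88, adjusted p = 0.0232), *Tmem54*, a membrane protein gene (−0.66, 0.0215), *Tgm1*, the transglutaminase that crosslinks the cornified envelope (−1.18, 0.0300), and *Tgm5*, another epidermal transglutaminase (adjusted p = 0.0328). *Tgm5* was below the background level on every array, so no fold is given. *Cdh1* (0.05), *Cldn4* (0.37) and *Epcam* (0.30), junction and adhesion genes of the same list, did not pass. *Epcam* was used for the sort. The count lower was 0 without plastic array 1 (7 lower at an unadjusted p under 0.05 in limma), 1 without plastic array 3 or full epithelial array 1 or 3, 2 without full epithelial array 2 and 5 without plastic array 2.

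Among 12 genes that Ovol factors are known to repress, 0 fell and 3 rose, with a median of 0.28. At an unadjusted p under 0.05, 0 were lower and 4 higher. *Vim*, the intermediate filament of mesenchymal cells, read 5.38, 6.31 and 6.53 in full epithelial arrays 1 to 3 and 8.70, 7.90 and 8.39 in plastic arrays 1 to 3 (log2 fold change 2.26, adjusted p = 0.0166, limma). The *Vim* reading of 5.38 was below background, so the size rests in part on it. *Notch1*, a receptor with roles in keratinocyte differentiation, rose by 1.06 and *Myc*, a growth regulator, by 0.70 on the log2 scale. The calls of *Notch1* (adjusted p = 0.0598) and *Myc* (0.0591) were lost after a second quantile normalization. *Zeb1*, *Zeb2* and *Snai1*, mesenchymal transcription factors of this list, were below background in both groups and did not pass. *Twist1*, another, read 5.59, 5.77 and 5.61 in full epithelial arrays and 6.60, 5.78 and 6.78 in plastic arrays. Its log2 fold change of 0.73 did not pass (adjusted p = 0.159, limma). The *Twist1* readings of 5.59 and 5.61 were below background, so the size rests in part on them. *Snai2* was above background on every array and had 0.30 (0.355). The count higher was 0 without plastic array 1 or 3 (3 higher at an unadjusted p under 0.05 in limma in each), 1 without full epithelial array 1 or 3 and 2 without full epithelial array 2.

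Among 15 genes known as targets of Ehf, Elf3 or Elf5, 1 fell and 1 rose, with a median of −0.43. At an unadjusted p under 0.05, 6 were lower and 2 higher. *Tgfbr2*, the type II TGF-β receptor, whose human gene ELF3 can activate, rose by 1.31 on the log2 scale (adjusted p = 0.0186, limma). *Cldn7*, a claudin of basolateral membranes, read 5.39, 5.62 and 6.35 in full epithelial arrays and 4.27, 4.39 and 4.59 in plastic arrays (adjusted p = 0.0284). It was above the background level on 1 of the 6 arrays, and with all plastic arrays below it the bound is at least 1.04-fold lower. The call of *Tgfbr2* was lost without plastic array 1 or full epithelial array 1 or 2, and that of *Cldn7* without any 1 of the plastic arrays or without full epithelial array 2. With the mean over probe sets, or after a second quantile normalization, 2 genes of the list were called lower. *Krt4*, a keratin of stratified mucosa, had the list's lowest log2 fold change, −3.54, which did not pass (adjusted p = 0.0569). Its reading on plastic array 3, 4.20, was below background, so the size rests in part on that reading. *Sprr1b*, a cornified envelope precursor, had −1.25 (0.194).

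Of 15 mRNAs whose splicing Esrp proteins control, 1 rose and 0 fell, with 1 lower and 3 higher at an unadjusted p under 0.05 and a median of 0.02. *Map3k7*, the TAK1 kinase of TGF-β and cytokine signaling, rose by 1.06 on the log2 scale (adjusted p = 0.00751, limma) and was called in all 6 fits that leave out 1 array. The list holds *Grhl1* as well, and with dim probe sets left out 1 of its genes was called lower and 2 higher. Whole-gene values say nothing of splice forms, so the activity of Esrp1 and Esrp2 was not measured. *Fgfr2*, whose epithelial isoform is the best known Esrp product, had a log2 fold change of 0.16 and *Cd44* had 0.53, with adjusted p of 0.902 and 0.217. Of 20 other splicing regulators of epithelial and mesenchymal isoforms, 3 rose and 0 fell, with unadjusted p under 0.05 for 7 higher and 0 lower genes and a median of 0.19. *Celf1* rose by 0.83, *Mbnl1* by 0.65 and *Hnrnpm* by 0.53 on the log2 scale, and the call of *Celf1* was lost after a second quantile normalization (adjusted p = 0.0549). *Rbm47*, which like the Esrp proteins favors epithelial isoforms, had −0.06 (0.912). The count higher was 0 without plastic array 1 (6 higher at an unadjusted p under 0.05 in limma) or plastic array 3 (5 higher), 1 without full epithelial array 1 or 3, and 3 in the other leave-one-out fits.

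The ETS family outside the 3 epithelial members had calls in the opposite direction. Of 21 other ETS genes, 4 rose and 0 fell, with unadjusted p under 0.05 for 6 higher and 0 lower genes and a median of 0.07. *Ets1*, a factor of invasive and endothelial cells, read 4.19, 5.00 and 5.57 in full epithelial arrays 1 to 3 and 7.32, 7.0 and 6.59 in plastic arrays 1 to 3. All full epithelial arrays were below background, so *Ets1* was at least 2.37-fold higher in plastic cells (adjusted p = 0.0259 in the limma fit to the deposited values). *Etv6*, a repressor, read 6.66, 6.33 and 6.02 in full epithelial arrays and 7.61, 7.73 and 7.77 in plastic arrays, a log2 fold change of 1.37 (adjusted p = 0.0108). *Elf2*, a broadly expressed relative of the Elf members, rose by 0.86 and *Elk3*, a ternary complex factor, by 0.67 on the log2 scale. *Elf2* and *Etv6* were called in all 6 fits that leave out 1 array, while the call of *Elk3* was lost after a second quantile normalization (adjusted p = 0.0793). The count higher was 2 without plastic array 1 or 3 or full epithelial array 2, and 3 or 4 in the other leave-one-out fits. With the mean over probe sets for each gene it was 2. The difference in direction between these genes and *Elf3*, *Elf5* and *Ehf* was not tested.

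Among 28 other epidermal transcription factors, 2 fell and 0 rose, with 8 lower and 2 higher at an unadjusted p under 0.05 and a median of −0.20. *Dlx3*, a homeobox factor of differentiating epidermis and hair, read 8.92, 7.90 and 8.31 in full epithelial arrays 1 to 3 and 5.69, 6.56 and 4.79 in plastic arrays 1 to 3 (adjusted p = 0.0248, limma). As with *Elf5*, plastic array 2 was the highest of the plastic arrays and the other 2 were below the background level, so *Dlx3* was at least 5.17-fold lower. *Klf5*, a Krüppel-like factor of proliferating epithelium, had a log2 fold change of −1.06 (adjusted p = 0.0372). *Trp63*, the basal keratinocyte master factor, had 0.38 (0.163) and *Klf4*, of late differentiation, did not pass. The count lower was 0 without plastic array 1 or full epithelial array 1 or 3, 1 without plastic array 3 or full epithelial array 2, and 2 without plastic array 2. At an unadjusted p under 0.05 in limma, 8 were lower without plastic array 1. Of 3 measured relatives of the Grhl factors in the grainyhead/CP2 group, 0 were called, with 1 higher at an unadjusted p under 0.05. In all 8 lists together, 7 genes fell and 12 rose.

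**Figure D4:**
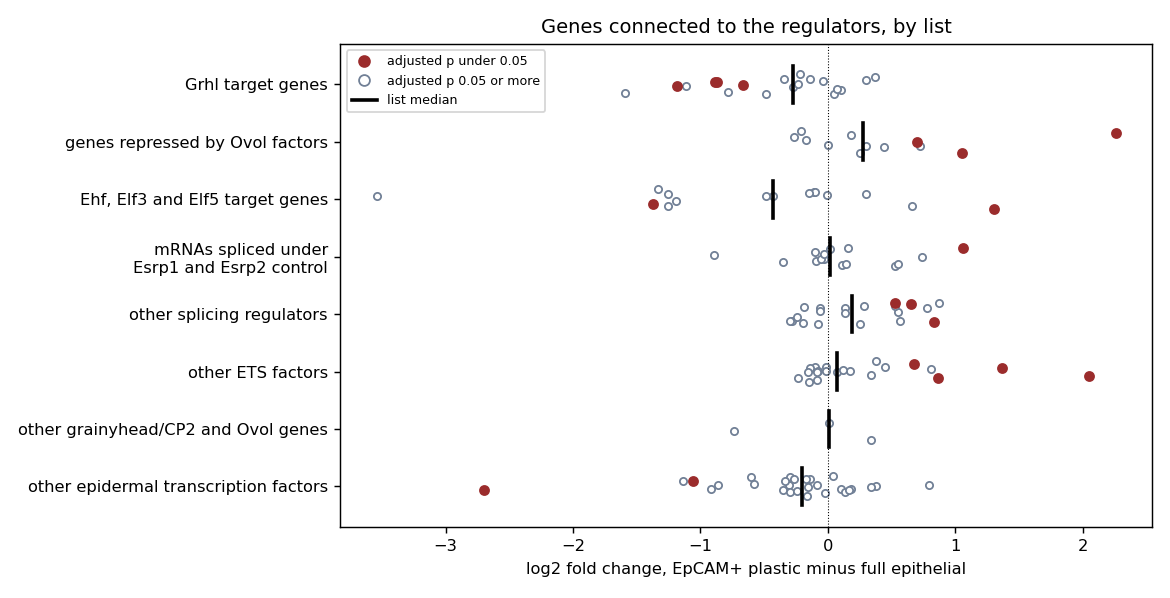
Log2 fold change (horizontal axis, EpCAM+ plastic minus full epithelial) of the measured genes of the 8 lists, with the list median as a bar and red points for genes past an adjusted p of 0.05. Red points lie left of 0 among Grhl targets and other epidermal factors, and right of 0 among other ETS factors, other splicing regulators and genes repressed by Ovol factors.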

How the data were processed

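Gene expression was measured in 3 full epithelial and 3 EpCAM+ plastic samples, 1 Affymetrix mouse expression array each, from amplified cDNA of 10 ng RNA per the labels. The deposited log2 values were made by the authors with RMA (no version stated in the sources). It corrects background, normalizes probes by quantiles and gives 1 value per probe set, so a broad shift of many genes is partly taken out and dim probe sets understate changes. A further table of 6 columns that name no sample was not used. Names came from the platform annotation, in which 28898 probe sets have 1 gene, with symbols updated through RefSeq GRCm38.p6, and the brightest probe set on average stood for each gene.

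All 45141 probe sets were fitted with limma 3.58.1 (R 4.3.3, lmFit and eBayes, plastic minus full epithelial, 4 residual degrees of freedom), with Benjamini-Hochberg adjustment over all and a threshold of 0.05. The fit was tested on simulated data. Exact permutation tests used scipy 1.17.1. Arrays carry no read depth, so their number limits precision. The alternatives were a second quantile normalization, median centering, an intensity trend with robust estimation, array weights, a filter on dim probe sets, means over probe sets, a replicate block and leaving out each array. The text names all members, up to 4 called genes of a list by smallest p (all where 5 or fewer) and the 3 genes most alike to each called member. Other genes named are list members whose values help to place these, chosen after their values were seen. The members and lists were chosen with earlier results of these data known, so no list is independent evidence of a direction.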

Additional observations from a re-analysis of the deposited data

How the results depend on the processing

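No value of a called member changed sign under any of the 13 alternatives. The labels do not say that the replicate numbers pair the samples. Deviations of same-numbered arrays from their group means correlated at −0.18, −0.37 and −0.01. With 3 arrays per group such deviations are constrained to balance, so these values cannot decide whether samples were paired. With the replicate number as a block, 0 members were called lower and 0 of their probe sets (6 members lower and 11 probe sets at an unadjusted p under 0.05, limma), and the lists had 1 gene lower and 2 higher. That block cut the calls over all genes from 326 lower and 906 higher to 68 and 154. Leaving out 1 array gave 0 to 2 members called lower (at least 5 at an unadjusted p under 0.05 in each fit), 0 to 5 member probe sets called (at least 9 unadjusted), 0 to 8 list genes lower (at least 16 unadjusted) and 3 to 12 higher. In these fits 1.45% to 7.14% of all genes were called in either direction, against 7.21% in the main fit. The median log2 fold change of the members ran from −0.55 to −0.34 in the fits that leave out 1 array. With dim probe sets left out, 7 member probe sets were called. That fit called 17.2% of its 7735 genes in either direction. No member was called higher under any alternative, with 0 or 1 at an unadjusted p under 0.05. Members called lower were 2 with array medians centred, with an intensity trend and after a second quantile normalization. These fits called 7.01%, 6.56% and 6.08% of all genes in either direction. A second quantile normalization moved the split of all calls from 73.5% higher to 60.3% higher (413 lower, 626 higher). *Ovol2* gave no value once dim probe sets were left out. With 3 arrays per group, differences of *Esrp1*, *Esrp2* and *Ovol1* within their intervals remain compatible with the values.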
